A study of Mus musculus with 23 samples.

Results

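The genes described here are the F-box, Asb, Klhl and Kbtbd genes, which encode substrate receptors of cullin-RING ubiquitin ligases. They were chosen by symbol alone, as every gene whose symbol starts with Fbxo, Fbxl, Fbxw, Asb, Klhl or Kbtbd followed by a number, and the muscle atrophy gene Fbxo32 (atrogin-1) and Fbxo30, Fbxo31 and Fbxo21 were left out. The rule found 126 genes among the 17194 genes of both count tables. There were 33 Fbxo, 19 Fbxl, 10 Fbxw, 18 Asb, 37 Klhl and 9 Kbtbd genes. Of these, 104 were among the 12831 genes measured in quadriceps and 123 among the 16962 measured in epididymal fat. Fbxl12os, measured in fat only, fits the symbol rule but is annotated as an antisense RNA next to Fbxl12 and encodes no receptor.

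RNA was sequenced from male C57BL/6J mice that were 8 wk old at surgery. No tumor mice had sham surgery. KPC mice received an injection into the pancreas of a mouse pancreatic cancer cell clone that carried a control CRISPR plasmid with a null guide RNA, and KPC IL6KO mice received a clone of the same cells in which Il6 had been targeted. Each tumor line was a single clone, the host mice were not edited, and all mice were euthanized together when the KPC group had wasted. The no tumor group gave 3 quadriceps libraries and each tumor group 4, and each group gave 4 fat libraries. Quadriceps and fat libraries are numbered apart, and RNA isolation and sequencing were done separately for the tissues per the labels. The study's methods give 4 animals per group for both tissues, while the labels give each library a code of its own, so whether the tissues share mice is not settled here. The comparisons ask which receptors changed with the KPC tumor and whether they changed with a tumor grown from cells in which Il6 was targeted.

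Ubiquitin ligases of this class are assembled from interchangeable parts. A cullin scaffold holds a RING subunit that binds the ubiquitin-charged enzyme at its C-terminal end and a substrate receptor at its N-terminal end, and the receptor decides which protein is marked for the proteasome. F-box proteins bind CUL1 through the adaptor SKP1, Asb proteins bind CUL5 through the elongins, and Klhl and Kbtbd proteins bind CUL3 directly through their BTB domain. Several Klhl and Kbtbd receptors are almost restricted to striated muscle, and mutations in KLHL40, KLHL41 and KBTBD13 cause nemaline myopathy in humans.

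The share of a library's counts that fell on the receptors was 0.478% to 0.667% in quadriceps and 0.271% to 0.368% in fat, in libraries of 19259763 to 74907810 and 26306377 to 56308545 counts. Levels are given as CPM, a gene's counts relative to the size of its library after TMM normalization, and 3 counts, the level not distinguished from 0, corresponded to 0.0462 to 0.154 CPM in quadriceps and 0.0474 to 0.123 in fat. Libraries are numbered as labelled. The 10 skeletal muscle fibre markers summed to between 168540 and 206147 CPM in no tumor, 133034 and 154411 in KPC and 192253 and 208334 in KPC IL6KO quadriceps. The tissue label thus holds in every quadriceps library. In fat, the 8 adipocyte markers summed to 1606 to 26811.5 CPM in no tumor. They summed to 2337 to 10557 in KPC and 4632 to 17422.5 in KPC IL6KO. The 10 epididymis markers summed to 15183 to 96889, 40812 to 68056, and 850 to 95099.7 CPM in the same order. The epididymis sum was the higher in every fat library except no tumor library 6 and KPC IL6KO library 5. The fat levels thus include RNA of that tissue. In bulk tissue, fewer cells of a type and less RNA per cell cannot be told apart.

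Compared per kb of annotated exon, receptor levels in no tumor quadriceps were led by genes of muscle. Asb2, which targets filamins and limits muscle mass, had the highest level at 198 ± 24.9 CPM per kb (SD, n = 3). Klhl41, which stabilizes the thin filament protein nebulin, followed at 147 ± 17.2, and Asb5 at 114 ± 13.7. These 3 levels lay apart by more than their SDs. Klhl40, Klhl21 and Asb11 came next at 65.3 ± 3.74, 61.3 ± 5.09 and 60.6 ± 4.85, which did not differ beyond their spread. In no tumor fat the order was different. Asb11 was highest at 41.1 ± 17.8 CPM per kb (SD, n = 4), followed by Fbxw5 at 34.6 ± 7.19 and Fbxo18, a DNA helicase listed as Fbh1 in current annotation, at 24.6 ± 3.20, and the first value overlapped with both others within 1 SD. Asb11 was at 25.6 to 103 CPM in 11 fat libraries and at 0.319 CPM in KPC IL6KO library 5, which held the least epididymis (850 CPM) and testis (1.67 CPM) markers of all 12 and 4632 CPM of adipocyte markers. The part of neighbouring tissue in the Asb11 level was not tested.

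In KPC quadriceps, the receptors changed in both directions. A gene was called when its FDR in edgeR's quasi-likelihood test was at most 0.05 and its FC at least 1.5. Compared with no tumor, 30 of 104 receptors rose and 28 fell. Of all genes tested, 26.7% rose and 29% fell, 55.7% together, and 55.8% of the receptors were called, a share close to the background. Their median log2 FC was -0.04 and that of all genes -0.03. The groups did not overlap for 37 receptors that were higher and 34 that were lower in KPC, 68.3% of them and 65.3% of all genes (32.3% higher and 33% lower). The counts thus say little about the class, and the account turns to which receptors moved and how far.

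**Figure D1:**
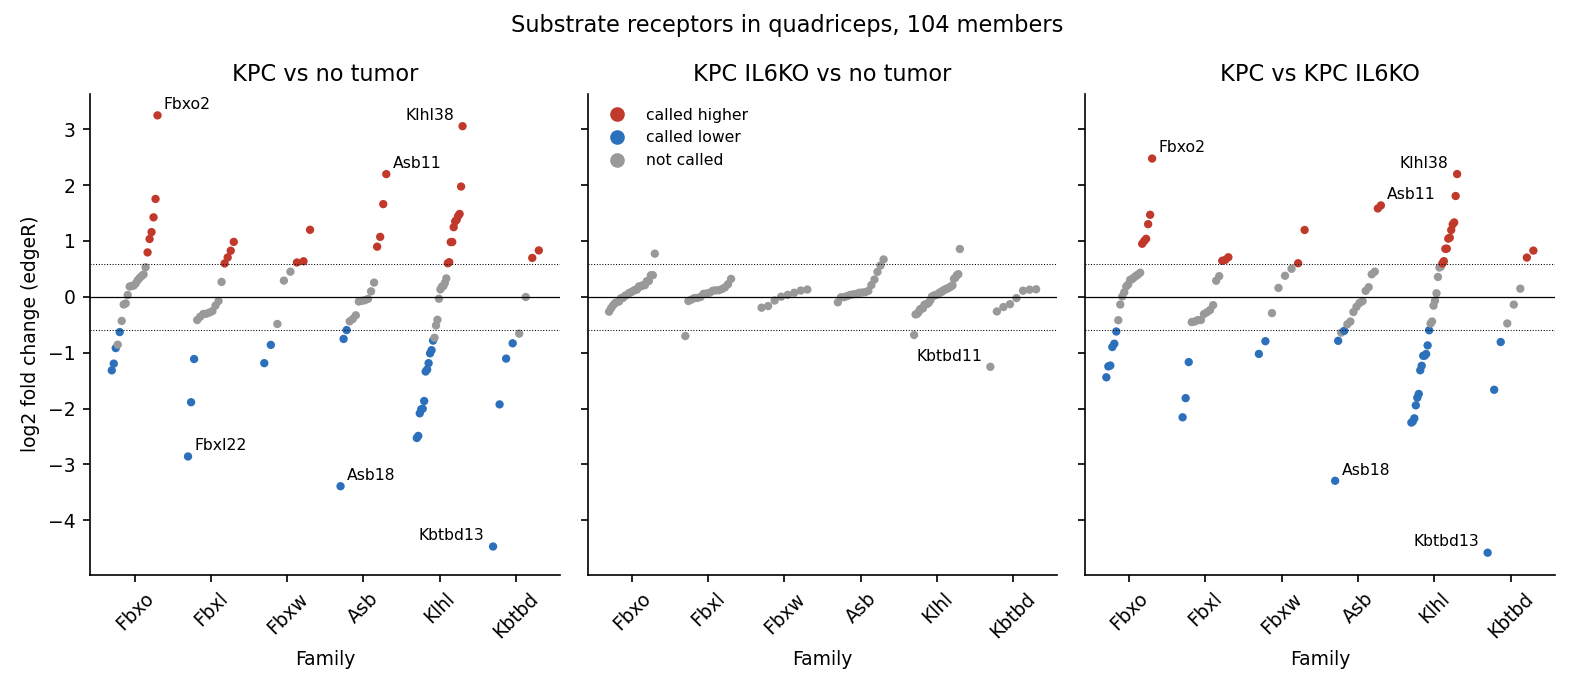
Log2 fold change of each of the 104 receptors in quadriceps (vertical axis) by family (horizontal axis), 1 point per gene, for the 3 comparisons; dotted lines mark an FC of 1.5. Called genes spread from -4.47 (Kbtbd13) to 3.25 (Fbxo2) in KPC vs no tumor and over a like range in KPC vs KPC IL6KO, and no gene is called in KPC IL6KO vs no tumor.

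The families differed in their counts. Of 32 Klhl genes, 11 rose and 12 fell (71.9% called), and of 8 Kbtbd genes 2 rose and 4 fell. Of 24 Fbxo genes, 6 rose and 4 fell. The Fbxl genes gave 4 rises and 3 falls of 16, and the Fbxw genes 3 rises and 2 falls of 8. Of 16 Asb genes, 4 rose and 3 fell (43.8% called). The BTB receptors together, Klhl and Kbtbd, were called in 72.5% of 40 and the F-box receptors in 45.8% of 48. The difference between families was not tested, since genes of a family are not replicates.

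**Figure D2:**
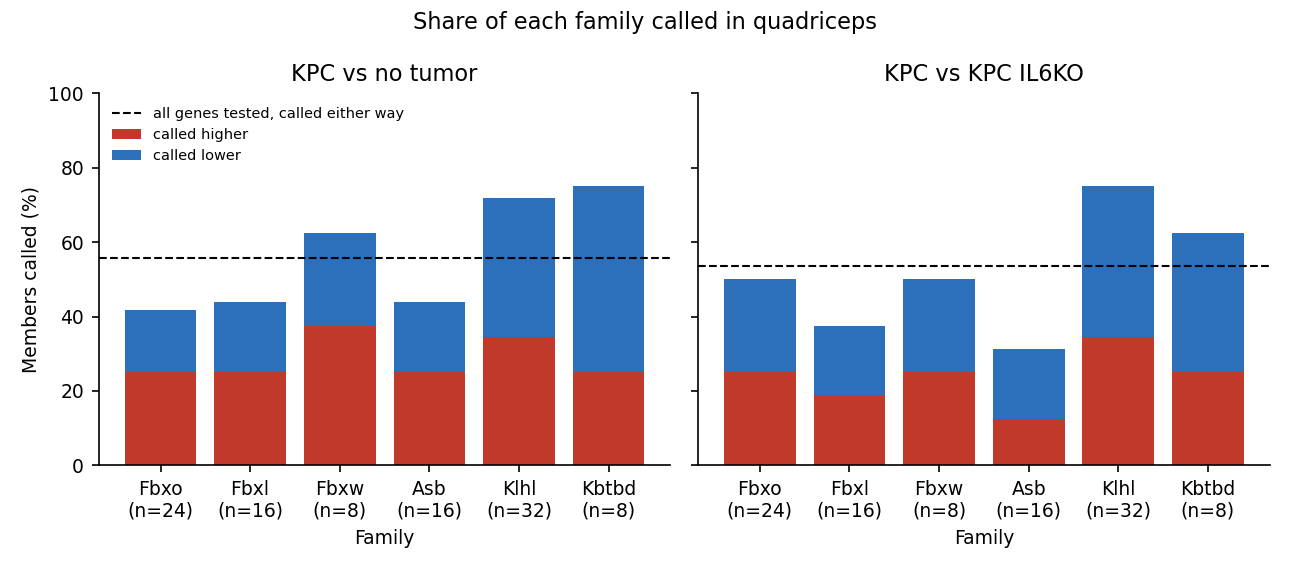
Percentage of each family's members in the quadriceps table that were called higher (lower part of each bar) or lower (upper part) for KPC vs no tumor and KPC vs KPC IL6KO, with the share of all tested genes called in either direction as a dashed line. The Klhl bar reaches 71.9% in KPC vs no tumor, above the line at 55.7%, and the Asb bar 43.8%, below it.

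Among the receptors tied to nemaline myopathy, Kbtbd13 fell and Klhl40 and Klhl41 were not called. Kbtbd13 (ENSMUSG00000054978, mm10 chr9:65388684-65391652, minus strand) measured 27.5, 22.9 and 21.7 CPM in the no tumor libraries. It measured 0.770, 2.12, 0.442 and 1.02 CPM in KPC and 26.9, 34.2, 19.8 and 23 CPM in KPC IL6KO. All 4 KPC libraries lay far under the lowest library of the other groups, which overlapped. This was the largest fall of any receptor, with a log2 FC of -4.47 ± 0.40 (SE) against no tumor (FDR 4.14e-06) and -4.58 ± 0.39 against KPC IL6KO (FDR 2.81e-06).

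Klhl41 measured 351, 341 and 420.4 CPM in no tumor, 375, 366, 343 and 364 in KPC and 349.9, 385, 388 and 395 in KPC IL6KO. The groups overlapped, and the log2 FC in KPC was -0.03 ± 0.10 (FDR 0.781). Its close relative Klhl40, which also protects nebulin, measured 156, 145 and 163 CPM in no tumor and 247, 203, 163 and 165 in KPC. The 2 lowest KPC libraries lay at the level of the highest no tumor library, and the log2 FC of 0.33 ± 0.16 was not called (FDR 0.0904). Against KPC IL6KO, with 147, 146, 136 and 106 CPM, the log2 FC of Klhl40 was 0.54 ± 0.15 (FDR 0.00705), an FC of 1.45 that was under the threshold.

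Other muscle receptors also fell. Asb18 measured 19.7, 15.4 and 17.8 CPM in no tumor, 0.585, 3.89, 0.524 and 1.75 in KPC and 15.8, 18.3, 18.7 and 13.1 in KPC IL6KO. Its log2 FC in KPC was -3.39 ± 0.54 (FDR 0.000183), and -4.23 without KPC library 2, the highest of its group. Klhl31, which is needed for the structure of the contractile apparatus in mice, was at 252, 196 and 233 CPM in no tumor and at 82.1, 148, 58.1 and 80.7 in KPC (log2 FC -1.30 ± 0.25, FDR 0.000652). In KPC IL6KO Klhl31 was at 248, 245, 214 and 209.8 CPM, within the no tumor range. KPC library 2 was again the highest of its group for both genes.

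Klhl33 was at 128, 99.1 and 115 CPM in no tumor and at 15.9, 35.4, 15.2 and 14.9 in KPC (log2 FC -2.49 ± 0.29, FDR 2.20e-05). Klhl8 was at 44.1, 42.2 and 52.3 CPM in no tumor and at 6.73, 21.5, 7.63 and 7.70 in KPC (log2 FC -2.08 ± 0.34, FDR 0.000237). In both, KPC libraries 1, 3 and 4 lay close together and library 2 stood at least 2 times higher, still under every no tumor library. Klhl23 was at 26.8, 24.3 and 18.6 CPM in no tumor and at 3.16, 5.48, 1.80 and 5.76 in KPC (log2 FC -2.53 ± 0.34, FDR 5.76e-05). Fbxl22, an F-box protein of the Z-disc that binds alpha-actinin and filamin C for degradation in cardiac muscle, was low throughout, at 3.45, 3.15 and 4.05 CPM in no tumor and at 0.755, 0.411, 0.229 and 0.546 in KPC. Its log2 FC was -2.86 ± 0.35 (FDR 3.25e-05), from 14 to 49 counts per KPC library. In KPC IL6KO it was at 2.4, 2.96, 1.83 and 1.51 CPM, under every no tumor library and above every KPC library, with a log2 FC of -0.70 ± 0.33 against no tumor that was not called (FDR 0.749).

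The nearness of KPC library 2 to the no tumor level was seen for most receptors that fell. It was the highest KPC library for 21 of the 28, library 1 for 4, library 4 for 3 and library 3 for none. Among all 3719 genes that fell, library 2 was the highest in 52.3%. For the 30 receptors that rose, library 2 was the lowest of the KPC group in 15 and library 4 in 10, beside 60.9% and 20.4% of all 3428 genes that rose. Without library 2, 60 receptors were called instead of 58.

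Receptors that rose included genes of the fibre as well as widely expressed ones. Klhl38 (chr15:58314573-58324169, minus strand) measured 25.8, 24.5 and 44.6 CPM in no tumor and 219, 373, 273 and 183 CPM in KPC. In KPC IL6KO it was at 39.9, 37.3, 74.9 and 76.2 CPM, so that replicates 3 and 4 lay above all no tumor libraries and replicates 1 and 2 among them. Its log2 FC was 3.05 ± 0.37 in KPC (FDR 2.63e-05) and 0.86 ± 0.33 in KPC IL6KO (FDR 0.590). Asb11 (chrX:164436994-164459170), a receptor of the endoplasmic reticulum that is known from muscle regeneration in zebrafish, was at 88.8, 99.1 and 104 CPM in no tumor and at 487, 467, 457 and 375 in KPC. In KPC IL6KO it was at 109.9, 101, 184 and 179 CPM, highest in the same 2 replicates. The log2 FC of Asb11 was 2.20 ± 0.22 in KPC (FDR 8.32e-06) and 0.56 ± 0.21 in KPC IL6KO (FDR 0.569).

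Asb2, the receptor with the highest level in muscle, was at 540.3, 517 and 651 CPM in no tumor and at 1874, 1062, 1218 and 640.4 in KPC. KPC library 4 lay within the no tumor range and library 1 highest, and the rise had a wide spread (log2 FC 1.07 ± 0.28, FDR 0.00463). In KPC IL6KO Asb2 was at 797, 929, 983 and 915 CPM, above all no tumor libraries, with a log2 FC of 0.67 ± 0.27 that was not called (FDR 0.595). The difference between KPC and KPC IL6KO was not called either (log2 FC 0.40 ± 0.25, FDR 0.168). Asb5 was at 172, 165 and 205 CPM in no tumor, at 405, 348, 252 and 342 in KPC and at 231, 207, 242 and 305 in KPC IL6KO. It rose in KPC (log2 FC 0.90 ± 0.18, FDR 0.000798), and the KPC and KPC IL6KO libraries overlapped.

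**Figure D3:**
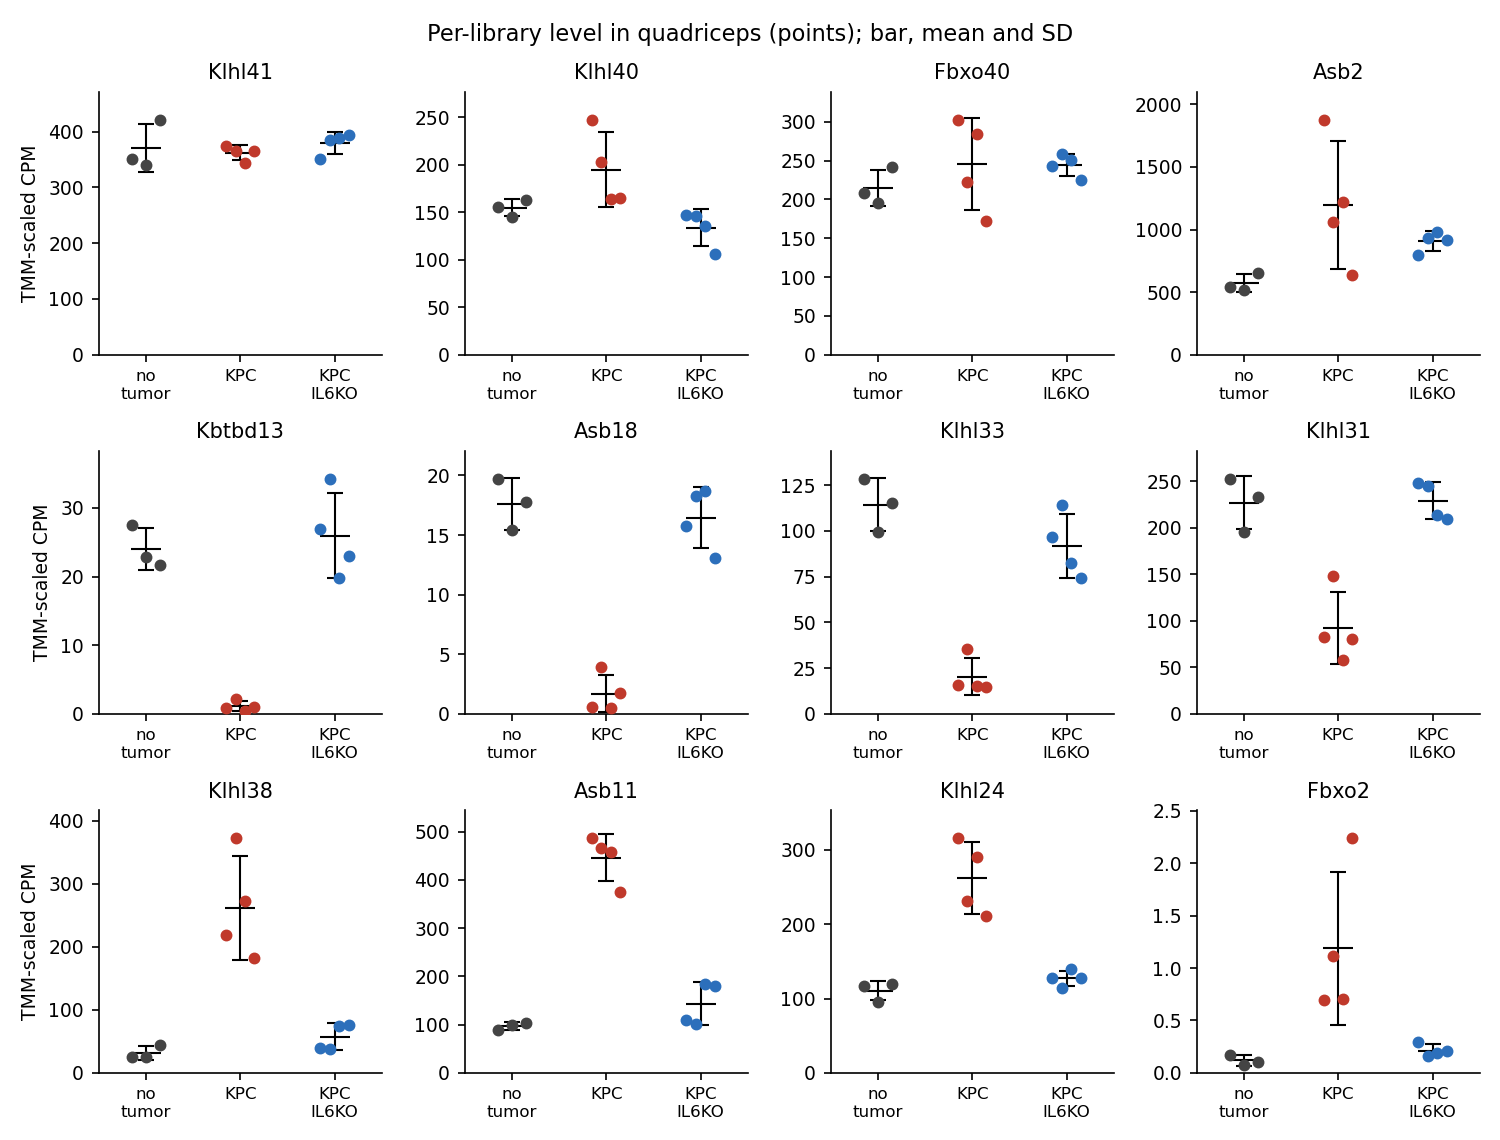
TMM-scaled CPM (vertical axis, from 0) of 12 receptors in each quadriceps library, by group (horizontal axis); points are libraries and bars are the mean and SD. The KPC points of Kbtbd13, Asb18, Klhl33 and Klhl31 sit under all other points, those of Klhl38, Asb11, Klhl24 and Fbxo2 above them, and those of Klhl41, Fbxo40 and Asb2 overlap with another group.

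The other muscle receptors named by rule were mixed. Klhl24, a receptor for intermediate filament proteins, was at 117, 95.5 and 119 CPM in no tumor and at 316, 231, 290.0 and 212 in KPC (log2 FC 1.25 ± 0.15, FDR 3.17e-05). Fbxo40, which targets IRS1 and so limits insulin-like growth factor signaling, was at 208, 195 and 241 CPM in no tumor and at 302, 223, 284 and 173 in KPC. Its KPC range enclosed the no tumor range, and its log2 FC was 0.19 ± 0.17 (FDR 0.334). Fbxo40 was measured in quadriceps only, as were Klhl34 and Klhl40.

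Asb15, which regulates muscle protein turnover, was at 79.0, 78.2 and 80.7 CPM in no tumor, at 55.8, 102, 44.5 and 38.6 in KPC and at 57.7, 110.4, 60.9 and 98.3 in KPC IL6KO. The log2 FC in KPC was -0.40 ± 0.32 (FDR 0.283), and -0.78 (FDR 0.0146) without KPC library 2. Kbtbd12 was at 25, 22.1 and 28.6 CPM in no tumor and at 23.3, 25.1, 31.6 and 20.6 in KPC, with an FC of 1.00 (FDR 0.987). Asb4, known from vascular and hypothalamic tissue, and Klhl3, the receptor for WNK kinases in the kidney, were not called in KPC (FDR 0.439 and 0.799), and Klhl3 was at no more than 1.15 CPM in any quadriceps library.

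Among F-box receptors with known roles, Fbxl4 rose and the tumor suppressor Fbxw7 fell. Fbxl4, mutated in a mitochondrial DNA depletion syndrome, was at 23.6, 22.8 and 26.7 CPM in no tumor and at 59.6, 48.7, 48.3 and 35.9 in KPC (log2 FC 0.98 ± 0.17, FDR 0.000276). Fbxw7, which marks MYC, cyclin E and NOTCH for degradation, was at 23.9, 23.4 and 21.8 CPM in no tumor and at 9.66, 11.8, 9.79 and 9.30 in KPC. Its log2 FC of -1.19 ± 0.11 had an FDR of 4.42e-06, and all 4 KPC IL6KO libraries, at 19.2 to 21.7 CPM, lay just under the no tumor libraries without a called difference (FDR 0.915). Fbxl5, the iron-dependent receptor for IRP2, was not called (log2 FC -0.16 ± 0.12, FDR 0.264).

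The partner receptors Klhl9 and Klhl13, which act together with CUL3 on Aurora B in dividing cells, moved apart. Klhl9 was at 31.3, 29.8 and 34.6 CPM in no tumor and at 53.8, 48.8, 46.5 and 44.3 in KPC. Its log2 FC of 0.60 ± 0.10 (FDR 0.000355) was close to the FC threshold and under it in 3 of the alternative fits. Klhl13 was at 3.48, 4.23 and 2.92 CPM in no tumor and at 0.862, 1.13, 0.540 and 0.997 in KPC (log2 FC -2.01 ± 0.26, FDR 4.11e-05). Klhl21, also a receptor for Aurora B, was at 233, 232 and 268 CPM in no tumor and at 454, 479, 505 and 492 in KPC (log2 FC 0.98 ± 0.12, FDR 3.38e-05). Of the 4 cycling cell markers, 2 were in the quadriceps table, and they summed to at most 2.5 CPM in any library.

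A group of 3 neighbouring F-box genes on chromosome 4 rose together. Fbxo6 (chr4:148145716-148152140) and Fbxo44 (chr4:148152800-148160482) lie on the minus strand and Fbxo2 (chr4:148160621-148166424) on the plus strand, with 659 bases between Fbxo6 and Fbxo44 and 138 bases between Fbxo44 and Fbxo2. Fbxo2 and Fbxo6 bind N-linked glycans and act on misfolded glycoproteins. Fbxo6 was at 29.9, 30.8 and 31.9 CPM in no tumor, at 101, 85.1, 158 and 71.2 in KPC and at 33.8, 36.7, 40.4 and 39.3 in KPC IL6KO (log2 FC in KPC 1.75 ± 0.23, FDR 4.67e-05).

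Fbxo44 was at 6.42, 7.09 and 5.89 CPM in no tumor, at 19.9, 14.7, 12.6 and 22.4 in KPC and at 7.52, 8.38, 9.79 and 8.18 in KPC IL6KO (log2 FC in KPC 1.42 ± 0.20, FDR 7.69e-05). Fbxo2 was at 0.173, 0.0784 and 0.102 CPM in no tumor, at 0.693, 1.11, 0.704 and 2.24 in KPC and at 0.295, 0.158, 0.189 and 0.206 in KPC IL6KO. Its log2 FC of 3.25 ± 0.54 (FDR 0.000259) rests on 2 to 10 counts per no tumor library and 43 to 119 per KPC library. KPC IL6KO libraries of Fbxo6 and Fbxo44 all lay above the no tumor libraries, with log2 FC of 0.28 ± 0.22 and 0.38 ± 0.19 that were not called (FDR 0.966 and 0.799). The annotated genes do not overlap, and the strand setting of the counting is not given in the sources used here. The related genes Fbxo17 and Fbxo27, neighbours on chromosome 7, were not called (FDR 0.652 and 0.111). Across all members, 8 pairs lay within 100 kb of each other, and in 4 of them both genes were in the quadriceps table.

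Other rises were of the same order. Klhl7 was at 30.9, 29.3 and 33.4 CPM in no tumor and at 195, 70.2, 99.4 and 125 in KPC (log2 FC 1.97 ± 0.28, FDR 9.21e-05). Asb6 was at 11.4, 11.2 and 11.3 CPM in no tumor and at 41.1, 23.9, 33.4 and 44.5 in KPC (log2 FC 1.66 ± 0.19, FDR 1.64e-05). Fbxw8, which assembles with CUL7, was at 44.8, 47.6 and 45.4 CPM in no tumor and at 118, 84.3, 115 and 106 in KPC (log2 FC 1.20 ± 0.12, FDR 1.03e-05). In these the 3 no tumor libraries lay close together, and the KPC libraries spread more widely and did not overlap with them. Klhl30 was at 132, 117 and 103 CPM in no tumor and at 385, 264, 267 and 282 in KPC (log2 FC 1.35 ± 0.18, FDR 4.86e-05). Klhl22, chosen after its values were seen because its FDR was the lowest of all receptors (2.82e-06), ranged from 36.3 to 39.3 CPM without a tumor and from 93.6 to 116 in KPC, a log2 FC of 1.48 ± 0.12.

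Further falls were Fbxl16, at 3.62 to 4.87 CPM in no tumor and 0.982 to 1.28 in KPC (log2 FC -1.89 ± 0.21, FDR 1.46e-05), and Fbxo10, a receptor for BCL2, at 4.97 to 6.10 and 1.70 to 3.08 CPM (log2 FC -1.32 ± 0.20, FDR 0.000146). Fbxo25 fell with a log2 FC of -1.20 ± 0.23 (FDR 0.000629), Kbtbd3 with -1.93 ± 0.34 (FDR 0.000420) and Asb10 with -0.75 ± 0.19 (FDR 0.00368). Of the named receptors that were called with smaller changes, Fbxw2, Kbtbd2 and Kbtbd7 rose by 0.64, 0.83 and 0.70 on the log2 scale (Kbtbd7 was not called without KPC library 3, at 0.58), and Fbxw17, Kbtbd4 and Fbxo18 had log2 FC of -0.86, -0.83 and -0.92. Fbxw5 and Fbxl17 were not called (log2 FC 0.29, FDR 0.0208, and -0.25, FDR 0.195).

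Against KPC IL6KO instead of no tumor, the KPC group gave like counts. Of 104 receptors, 26 were higher and 30 lower in KPC, 53.8%, beside 53.6% of all genes (26.4% higher and 27.3% lower). The groups did not overlap for 34 receptors in each direction, 65.4% beside 62% of all genes (31.2% higher and 30.8% lower). Both comparisons use the same 4 KPC libraries, so they are not independent. The log2 FC was -4.58 for Kbtbd13, -3.29 ± 0.52 for Asb18 (FDR 0.000164), -2.25 ± 0.32 for Klhl23 (FDR 8.51e-05) and -2.23 for Klhl8 (FDR 0.000105), the 4 largest falls. The 2 largest rises were those of Fbxo2 (2.48 ± 0.43, FDR 0.000344) and Klhl38 (2.20 ± 0.31, FDR 8.51e-05). Klhl2, an actin-binding receptor, was called in this comparison (log2 FC 0.86 ± 0.24, FDR 0.00708) and not against no tumor (0.18 ± 0.26, FDR 0.548).

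In KPC IL6KO quadriceps, no receptor was called against no tumor by edgeR's quasi-likelihood test, DESeq2 or the likelihood ratio test, beside 0% of all genes by the first and 0.725% and 0.74% by the others. The lowest FDR was 0.363, and 7 of 104 receptors had an unadjusted p under 0.05 (6.73%), beside 6.91% of all genes. They were Kbtbd11, Klhl21, Klhl38, Asb2, Asb5, Asb11 and Klhl2. Their log2 FC were -1.25 for Kbtbd11, -0.68 for Klhl2, and 0.34, 0.86, 0.67, 0.45 and 0.56 for Klhl21, Klhl38, Asb2, Asb5 and Asb11. The groups did not overlap for 14 receptors that were higher and 4 that were lower, 17.3% beside 15.5% of all genes (7.54% higher and 8.01% lower). The median log2 FC was 0.06.

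Kbtbd11 had the lowest p of the receptors in KPC IL6KO. It was at 2.56, 5.6 and 2.87 CPM in no tumor, at 2.4, 1.4, 0.884 and 2.18 in KPC and at 1.48, 1.54, 1.37 and 1.82 in KPC IL6KO. No tumor library 2 stood at about 2 times the other no tumor libraries, and all tumor libraries lay under the no tumor group. The 8 adipocyte markers were also highest in no tumor library 2 (2688 CPM), beside 1056 and 550.4 CPM in the other no tumor libraries, 159 to 1721 in KPC and 215 to 646 in KPC IL6KO, and Kbtbd11 was at 27 to 90.2 CPM in the fat libraries. The part of fat tissue in the Kbtbd11 values was not tested. The log2 FC was -1.11 ± 0.35 in KPC, which was called (FDR 0.0148), and -1.25 ± 0.35 in KPC IL6KO, which was not (unadjusted p = 0.00414, FDR 0.363). Between KPC and KPC IL6KO it was 0.15 ± 0.33 (FDR 0.709).

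The other parts of the ligases were described with a list of 58 genes of the quadriceps table, of which 20 rose and 10 fell in KPC (51.7%, beside 55.7% of all genes). Of 10 cullin and RING genes, 5 rose and 1 fell. Cul1, the scaffold for F-box receptors, was at 78.9 ± 8.18 CPM in no tumor and 274.9 ± 60.5 in KPC (log2 FC 1.80, FDR 5.91e-06), and Cul3, the scaffold for BTB receptors, at 165 ± 19.4 and 317 ± 65.4 (log2 FC 0.94, FDR 0.000478). Cul5, the scaffold for Asb receptors, was not called (log2 FC -0.14, FDR 0.284), nor was the RING gene Rbx1 (0.30, FDR 0.0386). The adaptor Skp1a rose (log2 FC 0.76, FDR 0.000587) and the elongins Tceb1 and Tceb2 were not called.

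Of 10 genes for attaching NEDD8, the small modifier that activates cullins, 3 rose and 1 fell, and of 10 for removing it 3 rose and 1 fell. Of the 3 genes for receptor exchange or cullin inhibition, the exchange factor Cand2 and the inhibitor Glmn fell (log2 FC -0.64 and -0.89). Of 21 receptors of the same kinds with other symbols, 7 rose and 5 fell, among them Keap1, the CUL3 receptor for NRF2 (log2 FC 1.20, FDR 2.70e-05), and Spop (log2 FC -0.71, FDR 8.63e-05). In KPC IL6KO none of the 58 was called by the quasi-likelihood test, beside 0% of all genes. An unadjusted p under 0.05 was found for 3 of the 58, beside 6.91% of all genes.

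Other values moved with KPC in the same libraries. The 4 markers of denervated fibres in the table, of 5, summed to between 29.6 and 33.5 CPM in no tumor, 69.9 and 184 in KPC and 29.6 and 43.8 in KPC IL6KO. They did not move alike. Musk ranged from 6.41 to 11 CPM without a tumor and from 42.6 to 118 in KPC, and Myog from 4.33 to 5.31 and from 5.91 to 38.7, whereas Chrna1 (12.9 to 17.4 and 12.6 to 22.7) and Chrnd (2.97 to 5.37 and 2.33 to 4.21) overlapped. The 5 fibroblast markers summed to between 919 and 1008 CPM in no tumor, 159 and 264 in KPC and 512 and 779 in KPC IL6KO. The part of either in the receptor changes was not tested.

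Promoters of the receptors were searched for 6 motifs on both strands, in RefSeq windows of the mm10 build that run from 250 bases before to 50 after a gene's start. Windows were found for 100 of the 126 members, 138 windows in all. The motif of MEF2, a transcription factor family of muscle, searched as TATTTATAG, was in 5 of them, 3.62%, beside 0.451% of all 32851 windows. The E-box CAGCTG bound by myogenic factors was in 21.7% beside 16.3%. The FoxO motif GTAAACA was in 1.45% beside 3.65%, the STAT motif TTCNNNGAA in 7.97% beside 8.3%, the glucocorticoid receptor motif AGAACA in 15.2% beside 19%, and the C/EBP motif TTGCGCAA in 0% beside 0.183%. No hits overlapped in the windows printed here. The windows with the MEF2 motif are shown because they belong to receptors with different calls in KPC quadriceps. Asb18 fell (log2 FC -3.39), Klhl21 rose (0.98), and Kbtbd12, Asb14 and Asb16 were not called (FC 1.00, log2 FC -0.44 and 0.26, FDR 0.987, 0.00770 and 0.139). Each is given 5′ to 3′ on the strand of its gene, with every hit to the 6 motifs in capitals.
Asb18, chr1:90014617-90014916, minus strand, with FoxO, E-box and MEF2 hits in that order: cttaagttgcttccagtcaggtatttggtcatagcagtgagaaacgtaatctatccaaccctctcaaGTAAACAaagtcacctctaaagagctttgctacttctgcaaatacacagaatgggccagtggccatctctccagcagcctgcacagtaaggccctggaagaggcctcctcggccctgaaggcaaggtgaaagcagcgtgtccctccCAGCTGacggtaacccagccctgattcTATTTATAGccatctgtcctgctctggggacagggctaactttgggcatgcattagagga
Klhl21, chr4:152008641-152008940, plus strand, with E-box and MEF2 hits: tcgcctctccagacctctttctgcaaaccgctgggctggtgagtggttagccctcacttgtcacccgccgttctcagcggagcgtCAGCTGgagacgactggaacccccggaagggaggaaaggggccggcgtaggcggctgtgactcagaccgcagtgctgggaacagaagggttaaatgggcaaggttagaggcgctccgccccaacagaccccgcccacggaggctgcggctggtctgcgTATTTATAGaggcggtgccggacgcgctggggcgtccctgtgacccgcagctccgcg
Kbtbd12, chr6:88627380-88627679, minus strand, with a MEF2 hit: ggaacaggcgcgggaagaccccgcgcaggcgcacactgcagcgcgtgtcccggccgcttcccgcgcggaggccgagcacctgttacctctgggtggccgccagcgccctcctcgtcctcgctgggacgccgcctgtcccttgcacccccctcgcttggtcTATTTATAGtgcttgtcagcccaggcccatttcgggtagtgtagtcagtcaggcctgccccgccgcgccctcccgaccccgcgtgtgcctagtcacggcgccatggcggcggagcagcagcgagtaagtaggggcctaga
Asb14, chr14:26894364-26894663, plus strand, with glucocorticoid receptor and MEF2 hits: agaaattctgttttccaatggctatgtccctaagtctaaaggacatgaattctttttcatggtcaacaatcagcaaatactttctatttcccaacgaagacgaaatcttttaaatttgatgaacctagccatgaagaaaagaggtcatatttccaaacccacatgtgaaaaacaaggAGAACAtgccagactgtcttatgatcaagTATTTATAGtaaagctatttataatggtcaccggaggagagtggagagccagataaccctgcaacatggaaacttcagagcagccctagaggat
Asb16, chr11:102268501-102268800, plus strand, with FoxO (opposite strand), MEF2 and E-box hits: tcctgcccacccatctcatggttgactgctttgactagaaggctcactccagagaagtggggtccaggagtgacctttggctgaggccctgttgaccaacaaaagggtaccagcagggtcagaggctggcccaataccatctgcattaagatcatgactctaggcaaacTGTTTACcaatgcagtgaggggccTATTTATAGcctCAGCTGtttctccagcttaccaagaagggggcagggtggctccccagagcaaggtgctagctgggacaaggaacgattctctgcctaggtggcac

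The MEF2 hits began between 90 bases (Kbtbd12) and 7 bases (Klhl21) before the start. A match describes letters in a window, not a bound site, and the same motif stood before a receptor that fell, one that rose and 3 that were not called.

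In epididymal fat, no receptor was called in any of the 3 comparisons by the quasi-likelihood test, beside 0% of all genes. For KPC vs no tumor, 12 of 123 receptors had an unadjusted p under 0.05 (9.76%), beside 12.2% of all genes, and the lowest FDR was 0.241. For KPC IL6KO vs no tumor there were 4, beside 9.34%, and for KPC vs KPC IL6KO 7, beside 6.26%. DESeq2 called 2, 1 and 1 receptors in these comparisons and the likelihood ratio test 1, 1 and 1, all of them Klhl1 or Asb2, beside 3.45%, 1.68% and 0.737% of all genes by DESeq2 and 2.43%, 1.23% and 0.389% by the likelihood ratio test. The groups did not overlap for 11 of 123 receptors in KPC vs no tumor, 2 higher and 9 lower, 8.94% beside 10.9% of all genes (6.52% higher and 4.39% lower). They did not overlap for 0.813% in KPC IL6KO vs no tumor, beside 2.01% of all genes (1.52% higher and 0.489% lower), and for 4.88% in KPC vs KPC IL6KO, beside 4.33% (0.637% higher and 3.69% lower). The median log2 FC of the receptors in KPC was -0.26 and that of all genes -0.10.

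Klhl1, a receptor known from neurons, ranged from 0 to 0.0819 CPM in the 4 no tumor fat libraries, from at most 2 counts each. It was at 4.56, 1.03, 1.89 and 9.89 CPM in KPC and at 33.4, 0, 0.297 and 3.61 in KPC IL6KO. Every KPC library lay above every no tumor library, and KPC IL6KO library 6 had none. Set against the floor of 3 counts per library, its mean was at least 50.5-fold higher in KPC and at least 109-fold higher in KPC IL6KO. Single libraries carried much of both means. Without KPC library 8 the bound was 29.0-fold, and without KPC IL6KO library 5 it was 15.1-fold. The quasi-likelihood FDR was 0.255 and 0.385, and DESeq2 gave 0.00292 and 0.000606. The mesothelium markers were highest in KPC IL6KO library 5 (1333 CPM summed over 4 markers) and KPC library 8 (638), which also had the most Klhl1, beside 110.3 to 275 CPM in no tumor. The mesothelium list includes Krt19, which other epithelia also express. The 4 cycling cell markers were highest in the same libraries (684 and 469 CPM), beside 36.1 to 93.6 CPM in no tumor and 35.7 and 93.8 in KPC IL6KO libraries 6 and 7. The part of either in the values was not tested. Klhl1 was not in the quadriceps table.

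Asb2 was at 4.26, 7.47, 4.49 and 13.6 CPM in no tumor fat, at 1.37, 1.80, 2.76 and 1.98 in KPC and at 8.79, 7.65, 4.13 and 20.1 in KPC IL6KO. All KPC libraries lay under all others. The log2 FC was -1.91 ± 0.54 against no tumor (FDR 0.241) and -2.36 ± 0.55 against KPC IL6KO (FDR 0.558), and DESeq2 gave FDR of 0.0196 and 0.00748. The 10 skeletal muscle fibre markers, of a tissue where Asb2 is abundant, summed to 11.4 to 17.7 CPM in the KPC fat libraries, 18.6 to 312 in no tumor and 96.5 to 2983 in KPC IL6KO. Within KPC IL6KO, library 8 was highest in both the markers and Asb2. Library 7 had more of the markers than library 5 (462 and 96.5 CPM) and less Asb2 (4.13 and 8.79 CPM). The part of muscle in the Asb2 values was not tested. Klhl8 was at 13.3, 17.3, 11.1 and 18.3 CPM in no tumor and at 8.38, 8.02, 9.57 and 6.15 in KPC, without overlap (log2 FC -0.90 ± 0.28, FDR 0.278). Klhl6, a receptor of B cells, was at 3.11, 8.96, 1.65 and 3.49 CPM in no tumor and at 25.3, 20.2, 11.6 and 10.9 in KPC (log2 FC 1.98 ± 0.70, FDR 0.311). With the summed log2 CPM of the 10 epididymis markers as a covariate, its log2 FC was 2.69 (FDR 0.0285), a call. The 7 macrophage and neutrophil markers, a list with no B cell marker, summed to 143 to 619 CPM in no tumor and 720.4 to 1099 in KPC. Fbxl2 was named for its p in KPC IL6KO and ranged from 1.90 to 3.21 CPM without a tumor. In KPC IL6KO it was at 8.27, 3.87, 3.27 and 4.37 CPM (log2 FC 0.86 ± 0.35, FDR 0.499), highest in library 5. In KPC Fbxl2 was at 4.06, 3.64, 3.10 and 3.48 CPM, which overlapped with KPC IL6KO.

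Several receptors in fat varied with markers of tissues next to the pad. The 6 testis germ cell markers summed to 669 to 1744 CPM in no tumor libraries 6, 7 and 8, KPC library 7 and KPC IL6KO library 7, and to 1.67 to 239 CPM in the other 7 libraries. Klhl10, a receptor of spermatids required for male fertility, was at 27.7 to 84.9 CPM in those 5 libraries and at 0.245 to 10.6 CPM in the other 7. Fbxw10 was at 11.1 to 50.1 CPM in the 5 libraries and at 0.319 to 5.78 in the other 7, and Asb17, a testis gene, at 6.12 to 24.0 and 0 to 3.64. The libraries did not overlap for any of these genes, which were not in the quadriceps table, as the testis markers were not.

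Klhl41 in fat was at 26.6 CPM in KPC IL6KO library 8 and at 0.0292 to 2.61 CPM in the other 11 libraries, and this was the library with the highest muscle marker sum (2983 CPM). Asb18 was at 39.0 CPM in no tumor library 5, 26.4 in KPC IL6KO library 6 and 22.5 in no tumor library 7, which had the 3 highest sums of the 10 epididymis markers (96889, 95099.7 and 78214 CPM). In no tumor library 6 it had 0 counts at a sum of 15183 CPM. Of the 5 libraries high in testis markers, 3 were no tumor, 1 was KPC and 1 was KPC IL6KO. The common dispersion was 0.403 in fat and 0.0517 in quadriceps. The part of neighbouring tissue in the fat comparisons was not tested beyond the fits with a covariate.

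**Figure D4:**
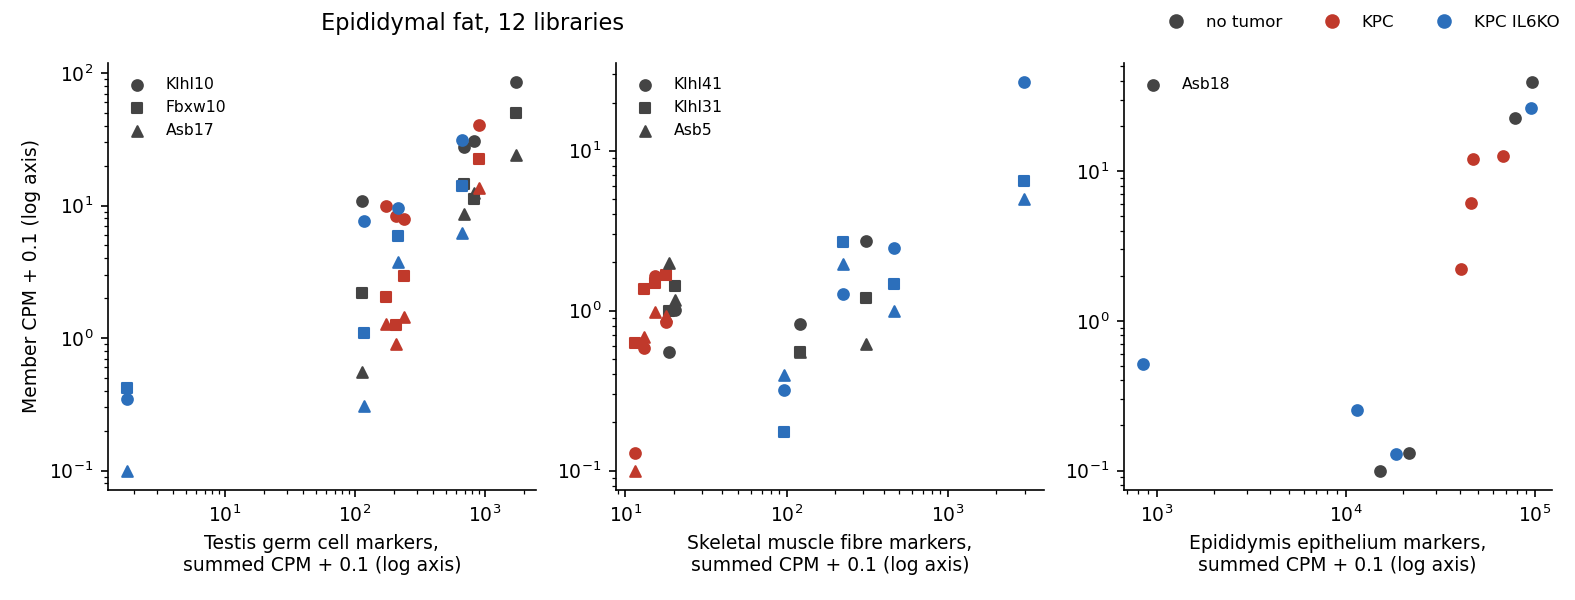
CPM of receptors in the 12 fat libraries (vertical axis) against the summed CPM of markers for testis germ cells, skeletal muscle fibre and epididymis epithelium (horizontal axes), both on log axes after adding 0.1; marker shape gives the gene and color the group. Klhl10, Fbxw10 and Asb17 are high in the 5 libraries with 669 to 1744 CPM of testis markers, and Klhl41 in the 1 library with 2983 CPM of muscle markers.

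The difference between tissues in the response to KPC was tested in 1 fit of all 23 libraries over the 12599 genes in both tables. Of 101 receptors, 22 had a higher and 18 a lower response in quadriceps than in fat, 39.6% beside 36.9% of all genes (18.1% higher and 18.8% lower). The largest called differences were those of Klhl38 (3.33 ± 1.02 on the log2 scale, FDR 0.0145), Fbxo2 (3.14 ± 0.90, FDR 0.00967) and Asb11 (2.93 ± 1.11, FDR 0.0419, between 0.0516 and 0.0870 in 11 of the fits without 1 library) on the positive side, and of Kbtbd13 (-3.95 ± 0.61, FDR 7.40e-05) and Klhl23 (-2.66 ± 0.67, FDR 0.00422) on the negative side. Some of these genes had few counts in a tissue. In the no tumor and KPC fat libraries, Klhl38 had 5 to 36 counts and Kbtbd13 had 10 to 38. Fbxo2 had 2 to 10 counts in the no tumor quadriceps libraries. Asb2 had log2 FC of opposite sign in the tissues, 1.07 in quadriceps and -1.91 in fat, and a difference of 2.90 ± 0.65 (FDR 0.00175). RNA of the tissues was isolated and sequenced separately, so tissue and RNA isolation or sequencing cannot be told apart, and the fit treats the libraries as independent, which does not hold if the tissues share mice.

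**Figure D5:**
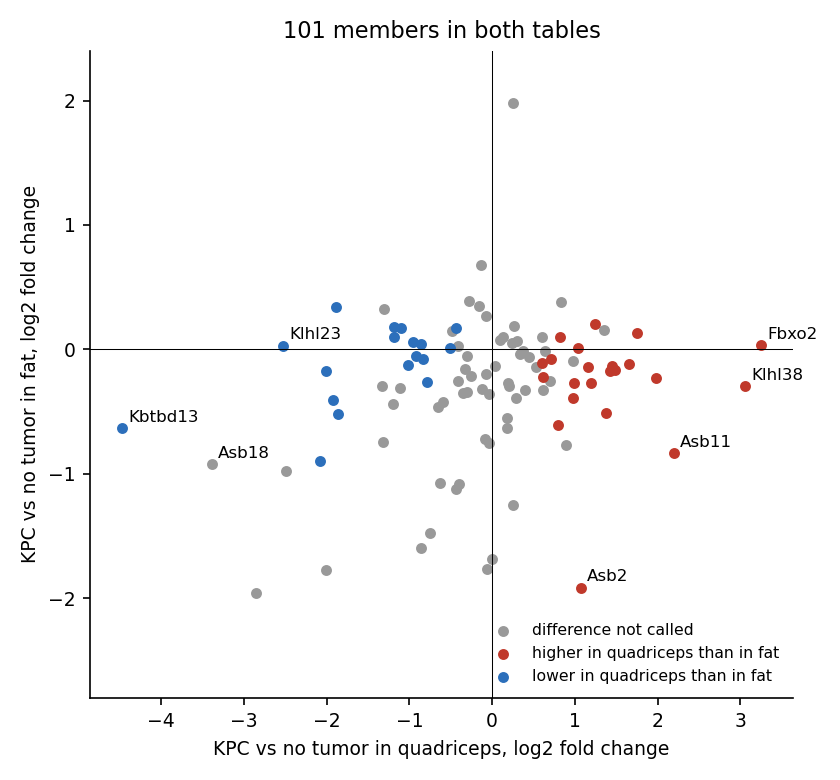
Log2 FC of KPC vs no tumor in fat (vertical axis) against that in quadriceps (horizontal axis) for the 101 receptors in both tables, 1 point per gene, colored by the call on the difference. Kbtbd13 lies at -4.47 in quadriceps and -0.63 in fat, Klhl38 at 3.05 and -0.29, and Asb2 at 1.07 and -1.91. Kbtbd13 and Klhl38 had few counts in fat.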

How the data were processed

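RNA was sequenced in 23 libraries, 11 of quadriceps and 12 of epididymal fat. Another no tumor quadriceps library was removed by the authors as an outlier and is not analysed here. The authors aligned reads with STAR to mm10 and deposited raw counts per gene of uniquely mapped reads. The submitters' processing notes also list FastQC, Subread, featureCounts 1.5.1 and edgeR 3.12.1. Low-count genes were absent from the deposited tables by a rule not given in the sources used here. The labels and the study's methods name different library kits, and the strand setting is not given.

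Each tissue was fitted on the deposited counts with TMM normalization and edgeR 4.0.16 (quasi-likelihood test, R 4.3.3), with the 3 groups in 1 fit and Benjamini-Hochberg adjustment over all genes of the table. filterByExpr removed 0 genes. Calls needed FDR ≤ 0.05 together with FC ≥ 1.5. The tissue difference was fitted over all 23 libraries. The procedure was also run on simulated counts, with the same dispersion for every gene and no differences in neighbouring tissue between libraries. The results of that run are not given here, so it says nothing about recovery in fat. Positions and exon lengths came from GENCODE M21 and promoters from RefSeq GRCm38.p6, with Python 3.11.15. Each SE is the absolute log2 FC divided by the square root of the quasi-likelihood F statistic. Floors cover counting error only, while SDs and SEs include the variation between libraries.

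The members and lists were chosen with earlier results of these data known. Genes were named by rule: members with a known role in striated muscle; in each family, the 2 called members with the largest rise and the 2 with the largest fall in KPC quadriceps that did not overlap and had a mean log2 CPM of at least 0; the member with the highest level per kb in each family and tissue; members called in KPC IL6KO or in fat by any tool; in fat, the 3 with the smallest p in KPC and the 2 in KPC IL6KO; and the 2 called members with the largest difference between tissues in each direction. Others were named after their values were seen. A named member is not reported here. Alternatives were DESeq2 1.42.0, the edgeR likelihood ratio test, other normalization, a stricter filter of 10 counts, no filter, only the 2 groups compared, a replicate block, marker covariates in fat and leaving out each library. The marker covariates were sums of the markers' log2 CPM, not the summed CPM given for the libraries.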

Additional observations from a re-analysis of the deposited data

Results flagged for a closer look

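Dixon's criterion was applied to the receptors chosen for display of each library's value in a tissue, and not to all named receptors. Of their 92 groups of 4 libraries, 10 had a library far from the others by it, and chance alone marks about 1 in 20 groups. In quadriceps, KPC library 2 stood apart for Klhl33 (35.4 CPM, the next 15.9) and Klhl8 (21.5 CPM, the next 7.70), and KPC library 1 for Klhl30 (385 CPM, the next 282). In fat, KPC library 7 stood apart for the testis-rich genes Asb17 (13.4 CPM, the next 1.34), Klhl10 (40.7 CPM, the next 9.79) and Fbxw10 (22.4 CPM, the next 2.83), and it held 894 CPM of testis germ cell markers, beside 172 to 239 in the other KPC libraries. KPC IL6KO library 5 stood apart for Klhl1 (33.4 CPM, the next 3.61), library 6 for Asb18 (26.4 CPM, the next 0.417) and library 8 for Klhl41 (26.6 CPM, the next 2.38). No tumor library 6 stood apart for Kbtbd13 in fat (1.28 CPM, the next 0.601).

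The response to KPC differed between quadriceps and fat, by the interaction term of edgeR's quasi-likelihood test, for Kbtbd13 (-3.95 on the log2 scale), Klhl23 (-2.66), Asb2 (2.90), Asb11 (2.93, not called with the replicate block or in 11 of the fits without 1 library), Fbxo2 (3.14) and Klhl38 (3.33). Counts were few for Klhl38 and Kbtbd13 in fat and for Fbxo2 in no tumor quadriceps. RNA of the tissues was isolated and sequenced separately per the labels, so tissue and RNA isolation or sequencing cannot be told apart in these values.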

How the results depend on the processing

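In quadriceps, 58 receptors were called for KPC vs no tumor, between 55 and 58 under 8 alternatives and between 54 and 60 without 1 library, with a median log2 FC between -0.091 and 0.0092. For KPC vs KPC IL6KO, 56 were called, between 52 and 56 under the alternatives and between 53 and 60 without 1 library, with a median between -0.122 and -0.0574. KPC IL6KO vs no tumor gave 0 under each. In fat the count of 0 became 2 with DESeq2 and 1 with the likelihood ratio test, the epididymis covariate (Klhl6) or only the 2 groups compared for KPC, and 1 with either tool for KPC IL6KO and for KPC vs KPC IL6KO. The fat median in KPC moved from -0.26 to -0.19 with at least 10 counts in every library, -0.18 with the epididymis covariate, -0.18 with a testis germ cell covariate chosen after seeing the data, and between -0.27 and -0.18 without 1 library. Without 1 library the fat medians ranged from -0.16 to -0.07 for KPC IL6KO and from -0.12 to 0.01 for KPC vs KPC IL6KO. The tissue difference, 40 receptors, gave 33 to 43 under the alternatives, 28 without fat KPC library 8 and 45 without fat KPC IL6KO library 5. Of 1910 values of named receptors under alternatives, 27 lost and 10 gained a call and 14 changed sign, all of the last near 0. Klhl3 turned to -0.0912 with the replicate block and -0.27 without KPC library 4 (up to 0.346 without 1 library). Klhl41 turned to 0.0045 with DESeq2, 0.0040 with RLE normalization and 0.0662 without no tumor library 3 (down to -0.0911 without another library). Kbtbd12 turned to 0.039 with DESeq2, 0.0378 with RLE normalization, 0.031 with the replicate block and 0.0241 with only the 2 groups compared, and lay between -0.131 and 0.0954 without 1 library. Kbtbd13 in KPC IL6KO turned to -0.0501 without KPC IL6KO library 2 (up to 0.222 without 1 library). The causes were not tested. Deviations of same-numbered libraries were correlated in some pairs and not in others (from -0.155 to 0.265 in quadriceps and from -0.539 to 0.650 in fat, where KPC and KPC IL6KO gave 0.251, 0.424, 0.650 and -0.0276), and the numbers were not taken as pairs. With the replicate block the tissue difference gave 33 and Asb11 lost its call there (FDR 0.0619). Depth limits Fbxo2, Fbxl22 and Klhl3 in quadriceps, Klhl1 in no tumor fat, and Klhl38 and Kbtbd13 in fat.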
